A study of Rattus norvegicus with 2 samples.

Results

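The BCL2 family is described here through 10 genes chosen by name, 4 anti-apoptotic (Bcl2, Bcl2l1, Bcl2l2 and Mcl1), 2 effectors (Bax and Bak1) and 4 BH3-only (Bcl2l11, Bbc3, Bad and Bid), out of 14913 gene names in the count table. Each of the 10 was found once, with 1036 to 12410 reads over both libraries, so all passed the minimum of 20 reads that left 12102 genes tested. The data are poly(A)-selected RNA-seq read counts from RBL-2H3, a rat basophilic leukemia line used as a model of mast cells and basophils. One library came from wild-type cells that received no treatment and 1 from wild-type cells that had been incubated with IgE. The labels give no IgE dose, no duration and no antigen.

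The BCL2 family sets whether the mitochondrial outer membrane stays intact. When BAX and BAK assemble pores in that membrane, cytochrome c leaves the mitochondria and caspases are activated. BCL2, BCL-XL (from Bcl2l1), BCL-W (from Bcl2l2) and MCL1 hold these effectors in check, and the BH3-only proteins BIM (from Bcl2l11), PUMA (from Bbc3), BAD and BID are the signals that bind and occupy the anti-apoptotic proteins or activate the effectors. In mast cells, engagement of the high-affinity IgE receptor is known to affect survival as well as degranulation, and both the anti-apoptotic A1 and the pro-apoptotic BIM have been tied to that receptor. The comparison addresses how the transcripts of these opposing groups stood in IgE-treated and untreated cells.

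The libraries held 20917968 (untreated) and 26268330 (IgE) counted reads. Each condition was 1 library, so no difference below has a replicate check, and fewer cells with a transcript cannot be told apart from less transcript per cell. All 7 mast cell and basophil markers were counted, at 37.9 to 2479 CPM in the untreated library (CPM is the read count normalised to library size, after TMM scaling). Of the markers of other cell types, 2 of 6 macrophage, 3 of 6 lymphocyte and 1 of 6 fibroblast genes were counted, and the rest were not analysed here. The macrophage genes Csf1r and Cd68 were at 1.41 to 2.19 CPM and the B cell gene Cd79a at 10.2 and 11.3 CPM, whereas the collagen gene Col3a1 stood at 281 CPM untreated and 253 CPM with IgE. A log2 fold is the log2 CPM in the IgE library minus that in the untreated one. For the 6955 genes counted 1000 times or more, the log2 fold had a median of 0.00 and an SD of 0.15. The 75 ribosomal protein genes tested had a median log2 fold of 0.29 and the 13 mitochondrially encoded genes one of 0.16.

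None of the 10 members was 2-fold apart between the libraries. Over all genes tested, a 2-fold difference was passed upward by 1.33% and downward by 1.3%. The widest difference was that of the BH3-only gene Bcl2l11, which was 31.8% higher with IgE, followed by the effector gene Bax at 17.9% higher. Bcl2l2 was the lowest, with 0.863 times its untreated level. A second rule of size took a level 25% higher, or its reciprocal of 20% lower. Bcl2l11 passed it upward, so 1 of 10 members was called higher by that rule, against 10% of all genes tested and 2.95% of genes with 1000 or more reads. Lower by 20% or more were 0 of 10 members, 8.08% of all genes tested and 1.06% of those with 1000 or more reads.

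**Figure D1:**
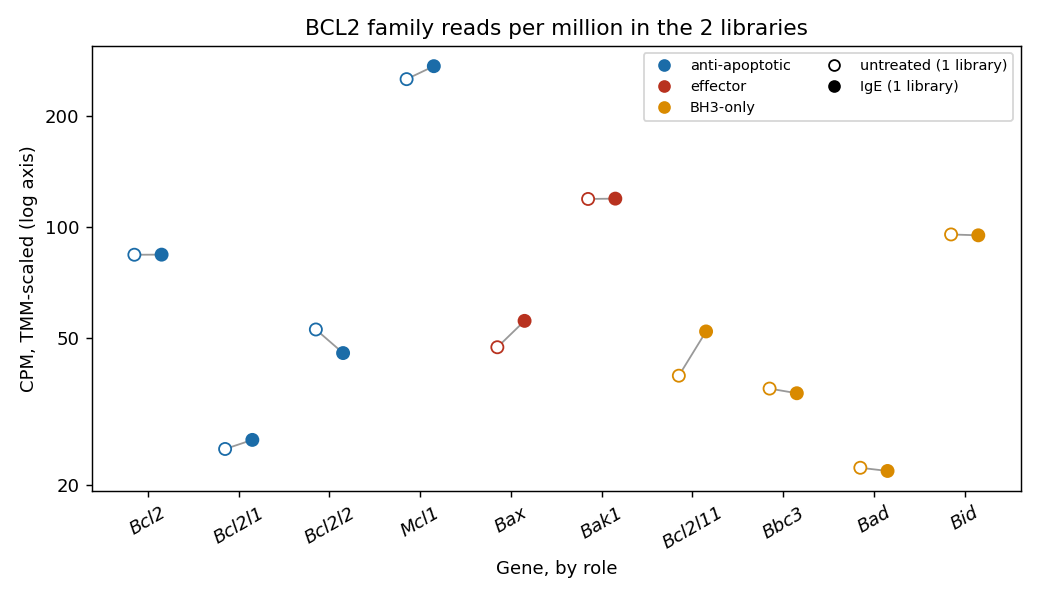
Normalised read counts (CPM, TMM-scaled, log axis) of the 10 BCL2 family genes in the untreated library (open circles) and the IgE library (filled circles), coloured by role, with a line joining the 2 values of a gene. Bcl2l11 and Bax step up and Bcl2l2 steps down, whereas the lines of Bcl2, Bak1 and Bid are nearly flat; heights are not comparable between genes, since the reads are not divided by transcript length.

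Among the BH3-only genes, Bcl2l11 stood apart from the other three. Its product BIM binds every one of the 4 anti-apoptotic proteins listed and can activate BAX directly. Bcl2l11 was counted 828 times in untreated and 1362 times in IgE-treated cells, which is 39.5 and 52.0 CPM. The IgE library was thus 31.8% higher, a log2 fold of 0.40 with a 95% counting interval of 0.27 to 0.53. That interval comes from the exact Clopper-Pearson limits of the gene's reads, and it covers counting error only, since nothing in these 2 libraries measures the variation between cultures. Ordered by log2 fold, Bcl2l11 was number 74 from the top of the 6955 genes counted at least 1000 times.

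The stretch before the annotated start of Bcl2l11 is shown because this gene had the widest difference, and that of Bcl2 because it is the family's founding member and had the smallest one. Of the 10 members, 8 have an entry in the RefSeq promoter table (build GRCr8), and these are the 2 whose 250 bases before the start lie wholly outside the annotated gene. The Bcl2l11 stretch is chr3:135819792-135820041 on the plus strand, the Bcl2 stretch chr13:23366901-23367150 on the minus strand, both directly upstream of the annotated gene. Both are printed along the gene's strand, and capitals mark the FOXO core letters GTAAACA, the motif of the FOXO factors, of which FOXO3 is a known activator of Bcl2l11.
Bcl2l11: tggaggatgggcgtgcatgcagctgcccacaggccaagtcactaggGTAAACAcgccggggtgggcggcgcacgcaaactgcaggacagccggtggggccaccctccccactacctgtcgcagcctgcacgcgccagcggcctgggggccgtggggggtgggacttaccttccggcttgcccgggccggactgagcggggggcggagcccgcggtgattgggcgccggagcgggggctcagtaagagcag
Bcl2: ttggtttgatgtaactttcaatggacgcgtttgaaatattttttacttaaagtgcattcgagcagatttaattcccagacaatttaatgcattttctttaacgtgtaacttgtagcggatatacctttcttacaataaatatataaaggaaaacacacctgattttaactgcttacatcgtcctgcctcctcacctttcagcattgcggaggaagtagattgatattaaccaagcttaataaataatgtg

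These 2 stretches differ in composition. The Bcl2l11 stretch is 72% G and C and the Bcl2 stretch 33.6%, against a median of 51.2% over 33469 promoter stretches of the same length. On either strand, the FOXO core occurs once before Bcl2l11, beginning 204 bases before the start, and is found in 3.21% of all stretches. The GC box GGGCGG occurs 2 times and the letters CCAAT once before Bcl2l11, and these are present in 30.5% and 34% of all stretches. The Bcl2 stretch has none of these 3 motifs and holds the TATA letters TATAAA once, 109 bases before the start, as do 12.9% of all stretches. The EGR1 letters GCGTGGGCG are in neither stretch, and in 0.478% of all. The GC box and EGR1 letters have GGGCG in common, so matches to these can overlap. The FOXO and TATA letters have TAAA in common, but their matches cannot share a base. The stretch before Bad, not shown because it reaches into the annotated gene, also holds the FOXO core once, 118 bases before its start. A match of letters says nothing on binding in these cells.

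The other BH3-only genes were nearly level. Bbc3, which encodes PUMA, was at 36.4 CPM untreated and 35.4 CPM with IgE (764 and 926 reads), a log2 fold of -0.04 with an interval of -0.18 to 0.10. Bad, which encodes a protein kept inactive by phosphorylation and by the YWHA adaptor proteins, had 466 and 570 reads, or 22.2 and 21.8 CPM, and a log2 fold of -0.03 (interval -0.21 to 0.15). Bid, whose product is cleaved by caspase-8 and so links death receptors to mitochondria, had 2000 and 2482 reads, or 95.3 and 94.8 CPM, at -0.01 (-0.09 to 0.08). Every one of these 3 intervals spans 0. The BH3-only median was -0.02 and the mean 0.08, of opposite sign, Bcl2l11 being the single one above 0, beside a median of 0.00 over all genes tested.

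The effectors divided in the same manner, 1 higher and 1 level. Bax encodes the effector that moves from the cytosol into the outer membrane. It had 989 and 1455 reads, 47.1 CPM untreated and 55.6 CPM with IgE, a log2 fold of 0.24 with an interval of 0.12 to 0.36. Bak1, whose product resides in that membrane, had 2496 and 3121 reads, 118.9 and 119.2 CPM, a log2 fold of 0.00 (-0.07 to 0.08) that took the opposite sign with library totals. The read ratio of Bax to Bak1 was higher in the IgE library by a log2 of 0.23 (interval 0.09 to 0.38), a comparison that needs no library scaling. The difference of Bax lies between the ribosomal protein and mitochondrial medians given above; their part in it was not tested. The effector median of 0.12 is the mean of these 2 genes and was 0.00 without Bax.

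The anti-apoptotic genes went in both directions. Mcl1, which encodes a short-lived protein that many blood cells need to survive, had 5274 and 7136 reads, 251 CPM untreated and 273 CPM with IgE. Its log2 fold was 0.12 with an interval of 0.07 to 0.17, the narrowest of the 10 because it had the most reads. Bcl2l2 had 1105 and 1190 reads, 52.7 and 45.4 CPM, a log2 fold of -0.21 (-0.33 to -0.09). It is the only member whose interval lies below 0.

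Bcl2 and Bcl2l1 had intervals that span 0. Bcl2 stood at 84.0 CPM in both libraries (1762 and 2200 reads), with a log2 fold of 0.00 and an interval of -0.09 to 0.09; its sign was negative with library totals and with DESeq2 size factors. Bcl2l1, whose main product is BCL-XL, had 524 and 692 reads, 25.0 and 26.4 CPM, at 0.08 (-0.08 to 0.25). The anti-apoptotic median was 0.04 and the mean -0.003, of opposite sign. Their read ratios also differed from each other. The ratio of Bcl2l2 to Mcl1 was lower with IgE by a log2 of -0.33 (-0.46 to -0.20), and that of Bcl2l1 to Bcl2l2 was higher by 0.29 (0.09 to 0.50).

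**Figure D2:**
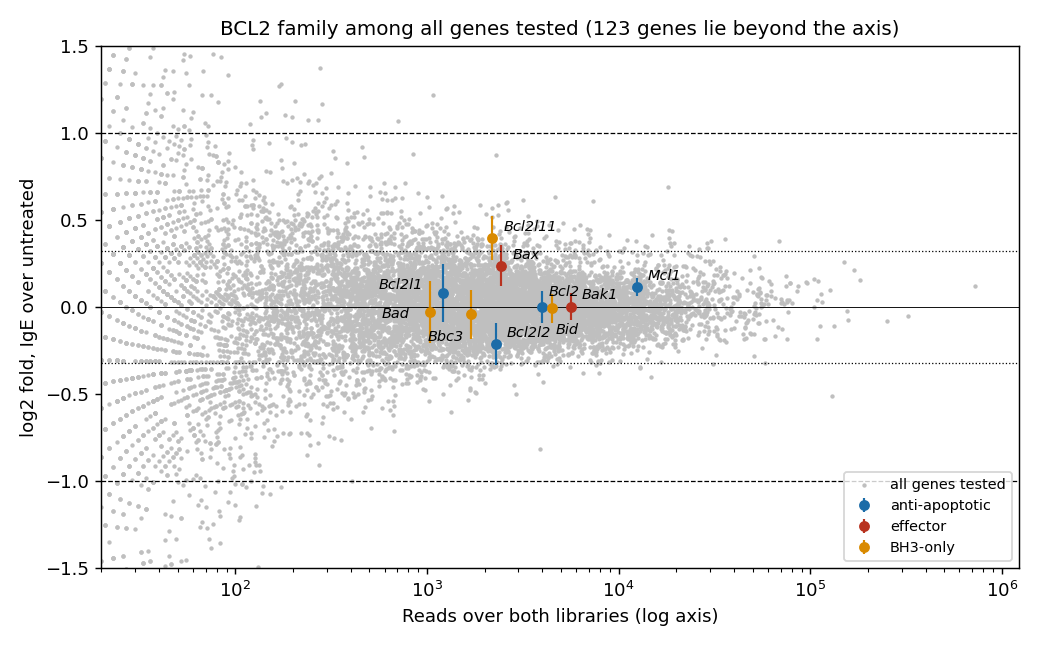
Log2 fold (IgE over untreated) against the reads over both libraries (log axis) for all genes tested (grey) and the 10 BCL2 family genes (coloured by role, bars are 95% counting intervals); dashed lines mark 2-fold and dotted lines 25% higher and 20% lower. Bcl2l11 lies above the upper dotted line and the other 9 genes lie between the dotted lines, and 123 genes lie beyond the axis limits of 1.5.

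By the counting interval, 3 of the 10 members (Mcl1, Bax and Bcl2l11) were above 0 and 1 (Bcl2l2) below, and 6 spanned 0. Over all genes tested, 20% had an interval above 0 and 18.6% one below. Among genes with 1000 or more reads these shares were 25.2% and 24.4%. The 3 of 10 members above 0 are near that background and the 1 of 10 below is under it; neither count was tested against it.

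In the authors' deposited table, the adjusted p was 1 for every one of the 10 genes. The unadjusted p in the authors' deposited table was lowest for Bcl2l11, at 0.0699, and lay between 0.286 (Bax) and 0.978 (Bak1) for the other 9. These p-values were recomputed to within 4.72e-10 by edgeR's exact test with a fixed dispersion of 0.01, that is an assumed coefficient of variation of 0.1 between replicates, and so rest on no measured replicate error. None of the 10 is among the 451 names of the authors' deposited table of selected genes.

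The contrast between death and survival genes was also expressed as read ratios within each library, since a ratio of 2 genes' reads needs no library scaling. A gene length effect common to both libraries cancels in the change of a ratio. A length effect that differed between the libraries would not cancel, and this was not tested. The change of a ratio follows from the log2 folds of its 2 genes given above, so the ratios restate those folds and add no separate support. There are 24 pairs of a pro-apoptotic and an anti-apoptotic member. The ratio was higher with IgE, with an interval above 0, in 8 pairs and lower in 3, and the interval spanned 0 in 13. Among the 13 pairs of members with the same role, the interval left out 0 in 8, so such shifts were at least as common between genes of like role, a difference that was not tested. The pairs share genes and are not independent of each other.

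Bcl2l11 accounts for 4 of the 8 higher ratios, 1 against each anti-apoptotic gene. Its read ratio to Bcl2 went from 0.470 to 0.619, a log2 difference of 0.40 (interval 0.24 to 0.55). Against Bcl2l1 the ratio went from 1.58 to 1.97 (0.32, interval 0.11 to 0.53). Against Mcl1, the anti-apoptotic gene that was itself higher, it went from 0.157 to 0.191 (0.28, interval 0.15 to 0.42). The widest of the 24 differences was that of Bcl2l11 to Bcl2l2, from 0.749 to 1.14 (0.61, interval 0.44 to 0.79), in which a higher numerator and a lower denominator meet.

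Bax had a higher ratio against Bcl2, from 0.561 to 0.661 (log2 difference 0.24, interval 0.09 to 0.39), and against Bcl2l2, from 0.895 to 1.22 (0.45, 0.28 to 0.62). Against Bcl2l1 and Mcl1 the intervals of Bax spanned 0, at -0.05 to 0.36 and -0.01 to 0.25. The 2 remaining higher ratios were those of Bak1 and Bid to Bcl2l2, at 0.22 and 0.20. The 3 lower ratios all had Mcl1 as the denominator, namely Bak1 (-0.11), Bid (-0.12) and Bbc3 (-0.16). All 4 ratios of Bad spanned 0. With intervals widened to 99.79%, an alternative chosen after seeing the data that allows for 24 pairs, 5 higher ratios and 0 lower ones were left. These were Bcl2l11 to Bcl2, Bcl2l2 and Mcl1, and Bax to Bcl2 and Bcl2l2.

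**Figure D3:**
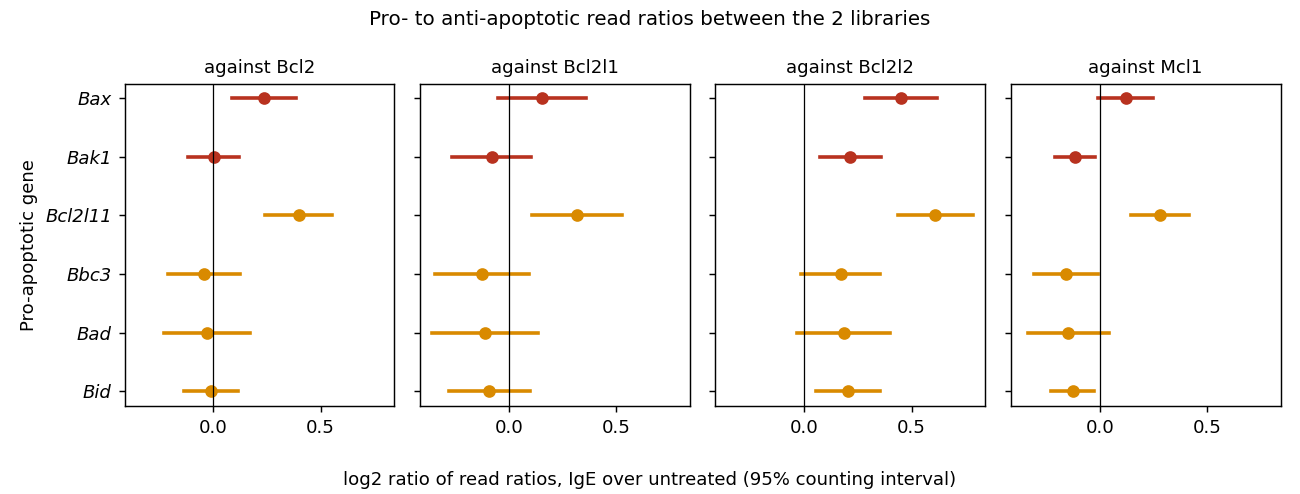
Log2 ratio of read ratios (IgE over untreated) for each pro-apoptotic gene (rows) against each of the 4 anti-apoptotic genes (panels), with 95% counting intervals as bars and 0 as the vertical line. The Bcl2l11 point is the rightmost in every panel, from 0.28 against Mcl1 to 0.61 against Bcl2l2, and all 6 points are right of 0 against Bcl2l2. Both patterns follow from Bcl2l11 having the highest and Bcl2l2 the lowest log2 fold of the members.

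Of 13 further BCL2 family genes, 6 passed the minimum of reads and none was 2-fold apart. Bcl2a1, which encodes the anti-apoptotic A1, was highest. It had 46 reads untreated and 83 with IgE, 2.19 and 3.17 CPM, a log2 fold of 0.53 with an interval of -0.005 to 1.08. Bcl2l14 followed at 0.35 (-0.10 to 0.81, 68 and 108 reads). Bcl2l12 was lowest at -0.26 (-0.51 to 0.003), and Bcl2l13, a mitochondrial family member, stood at -0.09. Bnip3, a mitophagy receptor with a BH3-like stretch, had 2987 and 4126 reads and a log2 fold of 0.15 (0.08 to 0.22). It was the single one of the 6 with an interval above 0, where all genes tested had 20% above. Bnip3 was named after its values were seen. The median of the 6 was 0.09. Bok (0 and 3 reads) and Bcl2l15 (0 and 1) were under the minimum, and Bcl2l10, Bmf, Bik, Hrk and Pmaip1 were not analysed here.

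Downstream of the pores, the genes of the apoptosome and of the caspases were close to level, with 1 exception on few reads. Of 10 tested, 0 were 2-fold higher and 1 was 2-fold lower. Cycs, which encodes cytochrome c, was highest, at 159 CPM untreated and 186 CPM with IgE (log2 fold 0.23, 0.17 to 0.29). Diablo, whose product SMAC relieves caspase inhibition, had 26 and 11 reads (log2 fold -1.51, interval -2.73 to -0.49). In the authors' deposited table the adjusted p of Diablo was 0.350. Casp2 had 34 and 40 reads and a log2 fold of -0.08. The list median was 0.04 and its mean -0.09, of opposite sign.

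The inhibitors of apoptosis restrain caspases or ubiquitinate signalling proteins. Of 5 tested, none was 2-fold apart, 3 had an interval above 0 and 1 below, where all genes tested had 20% above and 18.6% below. Genes with 1000 or more reads, as all but Birc3 are, had 25.2% above and 24.4% below. These counts were not tested against either background. Birc2 was at 35.1 CPM untreated and 43.3 CPM with IgE (log2 fold 0.30, 0.17 to 0.44) and Birc3 at 16.5 and 20.2 CPM (0.29, 0.09 to 0.49). The lowest were the giant ubiquitin ligase gene Birc6 (-0.06, -0.09 to -0.03) and Xiap, the direct caspase inhibitor (0.11, -0.06 to 0.28). The list median was 0.14.

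Genes for outer membrane partners had 5 of 7 intervals above 0 and 1 below, where genes with 1000 or more reads, as all 7 are, had 25.2% above and 24.4% below. The list median was 0.15 and was not tested against other genes. Bcap31, an endoplasmic reticulum protein that binds BCL2 proteins, was highest (0.21, 0.12 to 0.29), and the channel gene Vdac3 was next (0.17, 0.11 to 0.23). Becn1, the autophagy protein bound by BCL2, was lowest (-0.06, -0.12 to -0.002), and Bag1 lay at 0.02. None was 2-fold apart. The median is close to that of the mitochondrially encoded genes, 0.16, and no part of the 1 in the other was tested.

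Among 17 genes that regulate the family, no gene was 2-fold apart, 4 intervals lay above 0 and 5 below, and the median was -0.04. Over all genes tested, 20% of intervals lay above 0 and 18.6% below. Genes with 1000 or more reads had 25.2% above and 24.4% below. The counts were not tested against these shares. Foxo3 and Foxo1, which encode FOXO transcription factors, were lowest. Foxo3 was at 60.1 CPM untreated and 51.7 CPM with IgE (log2 fold -0.22, -0.33 to -0.10), and Foxo1 at 45.1 and 40.0 CPM (-0.17, -0.30 to -0.04). Cdkn1a, which encodes a cell cycle inhibitor, was highest (0.15, 0.06 to 0.25), and Ywhab, which encodes one of the adaptors that hold phosphorylated BAD, was next (0.12, 0.07 to 0.18).

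On the death receptor side, 6 of 11 genes were tested and none was 2-fold apart. Tradd, an adaptor of the TNF receptor, had 91 and 149 reads (log2 fold 0.39, 0.01 to 0.78), and Casp8, the protease that cleaves BID, 357 and 541 (0.28, 0.08 to 0.48). Fadd, the adaptor that recruits caspase-8, was lowest (-0.10, -0.25 to 0.04), with Ripk3, a kinase of necroptosis, next (-0.09, -0.21 to 0.04). The median was -0.02 and the mean 0.07, of opposite sign. Faslg had 5 and 10 reads, under the minimum, and Fas, Tnfrsf1a, Tnfrsf10b and Tnfsf10 were not analysed here.

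**Figure D4:**
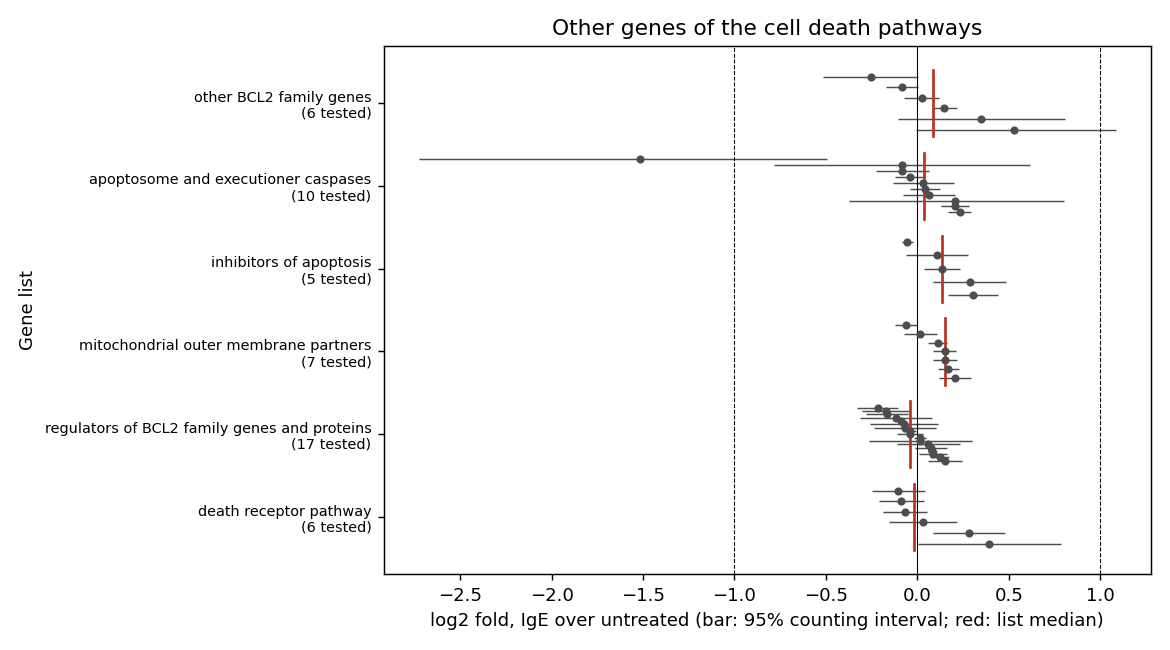
Log2 fold (IgE over untreated) of each gene over the minimum of 20 reads in 6 lists around the BCL2 family, with 95% counting intervals as bars, list medians as red lines and 2-fold as dashed lines. Diablo at -1.51 is the point beyond a dashed line, and its interval of -2.73 to -0.49 is the widest shown.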

How the data were processed

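The authors deposited raw read counts per gene name for both libraries, beside log2 fold changes and p-values, raw and adjusted, of their own comparison, per the file headers. Per the submitters' processing notes the build was rn6, and HISAT2 2.1.0, DESeq2 1.18.1 and fastp 0.23.0 were used, with no role stated. How reads were counted, and how strand and overlapping or near-identical genes were handled, is not given in the sources used here. Of 16990 rows, 2077 repeated a name with identical values and were dropped.

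CPM and log2 folds used edgeR 4.0.16 (R 4.3.3), TMM scaling, a prior of 0.5 counts and a minimum of 20 reads over both libraries. With 1 library per condition there was no test across samples. Read ratios of 2 genes carry the exact conditional 95% interval. The calculation was also run on simulated counts with counting error only, so that check did not cover variation between cultures. DESeq2 1.42.0 size factors were an alternative.

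Members and lists were chosen with earlier results of these data known, as was the rule of 25% higher or 20% lower; the background over genes with 1000 or more reads was added after the data were seen. All members were named, and from every other list the genes 2-fold apart and the 2 highest and 2 lowest, of which some are not reported here. Transcript lengths were not used here, so levels were not ranked between genes. Likeness of pattern was not measured, since 2 libraries give 1 difference per gene.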

Additional observations from a re-analysis of the deposited data

How the results depend on the processing

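The alternatives were library totals, DESeq2 size factors, a prior of 5 counts, no minimum and a minimum of 100 reads. All 50 alternative log2 folds of the 10 members stayed within the gene's counting interval, and 2 members near 0, Bcl2 and Bak1, changed sign. The minimum does not enter a member's fold or a role median, so changing it could not move them. A prior of 5 counts could move them little at these read numbers, so the check rests on the library scalings. No member was 2-fold apart under any of these settings or under a 1.5-fold rule. Of 18 alternative medians by role, 17 stayed within the median interval of the members; the effector median was 0.003 without Bax, since 1 gene is then left. All 24 pair ratios stayed within their interval with 0.5 added to each count, which could hardly move ratios of genes with 1036 reads or more. Wider intervals left 5 of 8 higher and 0 of 3 lower pairs. Over all genes, 161 were 2-fold higher and 157 lower, which became 855 and 875 without a minimum, 104 and 99 when the prior was 5 counts, 443 and 427 under a 1.5-fold rule, and 21 and 15 at a minimum of 100 reads; the prior and the minimum bear on weakly counted genes. No paired analysis was possible because each condition is 1 library, and for that reason none was left out in turn. At 1036 reads or more per member, the counting intervals are narrow, and the variation between cultures was not measured.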
